A study of Rattus norvegicus with 36 samples.

Results

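Prolactin and growth hormone signal through related receptors, and the 8 genes described here carry that signal in the mammary gland: the receptors Prlr and Ghr, the kinase Jak2, the transcription factors Stat5a and Stat5b, the feedback genes Cish and Socs2, and the alveolar transcription factor Elf5. They were measured by 12 of the 31099 probe sets of the array. A probe set was taken where the platform annotation gave it only 1 of these symbols, and the 8 genes are among 14218 annotated in this way. Prlr had 3 probe sets, Ghr and Cish had 2 each and the others had 1, and sets of one gene are lettered by falling mean level.

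Both receptors are class I cytokine receptors without an enzyme of their own. A bound hormone brings JAK2 molecules together, JAK2 phosphorylates the receptor and STAT5, and STAT5 dimers bind DNA at TTCNNNGAA motifs. Cish and Socs2 are STAT5 targets whose proteins damp the same receptors. In the mammary gland prolactin drives alveolar growth and milk synthesis, largely through STAT5A and ELF5, while growth hormone acts mainly on the stroma, including fat, and through local IGF1.

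The study set rat mammary cancers of different causes beside each other and beside normal tissue, on 36 one-colour arrays of tissue from female Sprague-Dawley rats. Rats were treated at 7 weeks of age, any chemical was given 3 days after any radiation, and all rats ate 23.5% corn oil diet from 9 weeks. Radiation was a single whole-body gamma dose of 1 Gy, MNU (methylnitrosourea, an alkylating agent) was injected once at 40 mg/kg, and PhIP (a mutagen of cooked meat) was gavaged at 40 mg/kg/day on 5 days a week for 2 weeks. The groups were radiation plus PhIP cancers without an H-ras mutation (4 arrays), radiation plus MNU cancers mutated (5) or nonmutated (4) in H-ras, PhIP cancers mutated (1) or nonmutated (3), MNU cancers mutated (5) or nonmutated (4), radiation cancers (4, nonmutated), spontaneous cancers from untreated rats (3, nonmutated) and normal mammary tissue from untreated rats (3). The labels do not say that each array came from a separate rat and give no batch, so p-values measure the spread between these samples, and the number of arrays limits the precision.

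Levels are given as deposited intensities, each array having been scaled as a whole (array medians 161.4 to 222.7). Differences are log2 fold changes ± SE of intensity plus 42.8, a scale that understates the change of weak genes. They come from limma fitted to all 21976 probe sets that exceeded 125.8 on at least 3 arrays, with Benjamini-Hochberg adjustment over all of them and a threshold of 0.05. All 12 member sets passed this filter, Socs2 on 13 and Ghr set B on 14 of the 36 arrays and the rest on at least 31. In the hexokinase control, whose 3'/5' signal ratio rises when labelled RNA falls short of the 5' end, MNU nonmutated 4 (12.25) and MNU mutated 1 (4.658) stood apart from the other 34 arrays (at most 3.413). The array at 3.413 was normal tissue 1, and the next highest was the PhIP mutated cancer (2.779). Most results that rest on MNU nonmutated 4 and MNU mutated 1, called the 2 arrays of high hexokinase ratio, are given with and without them.

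The promoter windows of the members that hold the STAT motif are shown. Cish held more of these motifs than any other member with a window. RefSeq (build GRCr8) gave windows of 300 bases, 250 before and 50 after a gene start, for 6 of the 8 members, all but Socs2 and Elf5. In the windows below capitals mark TTCNNNGAA, which reads the same on both strands. The first lies at chr8:116850719-116851018 and the other, at a downstream start of Prlr, at chr2:60909409-60909708, both on the plus strand.
Cish: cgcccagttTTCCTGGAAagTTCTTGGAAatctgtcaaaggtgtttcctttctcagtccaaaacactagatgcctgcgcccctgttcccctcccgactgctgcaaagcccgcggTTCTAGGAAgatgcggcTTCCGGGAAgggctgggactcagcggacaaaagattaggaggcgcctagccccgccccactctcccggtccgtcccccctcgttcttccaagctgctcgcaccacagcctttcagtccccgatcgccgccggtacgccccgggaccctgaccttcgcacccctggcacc
Prlr: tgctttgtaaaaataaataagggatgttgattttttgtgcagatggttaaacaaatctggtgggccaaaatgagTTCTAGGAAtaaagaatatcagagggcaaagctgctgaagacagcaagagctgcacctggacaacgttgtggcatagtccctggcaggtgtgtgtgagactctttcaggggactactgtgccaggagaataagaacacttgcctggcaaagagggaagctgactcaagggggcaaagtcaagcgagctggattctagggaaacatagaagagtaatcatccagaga
Cish held 4 motifs, beginning 241, 230, 136 and 119 bases before the gene start (TTCCTGGAA, TTCTTGGAA, TTCTAGGAA and TTCCGGGAA). Prlr held 1, TTCTAGGAA, 176 bases before that start. Of all 33469 rat windows, 2970 (8.874%) held at least 1 motif, 183 (0.5468%) held at least 2 and only 2 (0.005976%) held 4 or more. The upstream Prlr window and those of Ghr, Jak2, Stat5a and Stat5b held none. A match describes these letters and is not a measured binding site.

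Against normal tissue the cancers had far more Prlr RNA and far less Ghr RNA, with lower Stat5a and Elf5. The Elf5 call was lost in 11 of 49 alternative analyses. Jak2, Stat5b, Cish and Socs2 did not pass the test. In the 33 cancers against the 3 normal tissues, 7 of the 12 member sets passed the threshold, 3 higher and 4 lower, beside 30.5% of all probe sets tested (17.4% higher and 13.1% lower). In 4 member sets, Prlr sets A and B and both Ghr sets, no cancer overlapped any normal tissue, beside 6.97% of all probe sets. The median log2 fold change was -0.20 over the members and 0.05 over all probe sets. Without the 2 arrays of high hexokinase ratio the member count was again 7.

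**Figure D1:**
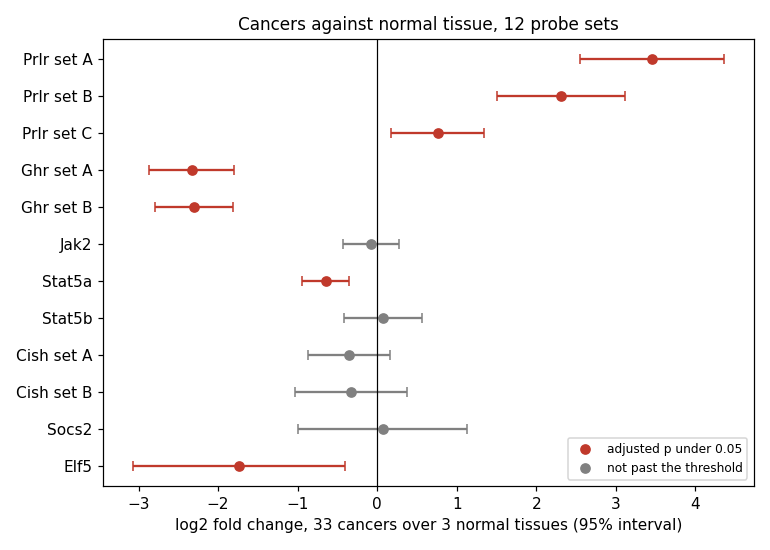
Log2 fold change of each of the 12 member probe sets, 33 cancers over 3 normal tissues, with 95% intervals from the fit. Red sets passed an adjusted p of 0.05: the 3 Prlr sets lie above 0, and both Ghr sets, Stat5a and Elf5 lie below it.

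Prlr, the prolactin receptor (chromosome 2, 60861391 to 61051883 in GRCr8), showed the largest rise among the members. Prlr set A read 6535, 3189, 3341 and 2899 in the radiation plus PhIP cancers, 4100, 3462, 7719, 6017 and 6492 in the radiation plus MNU mutated cancers and 6019, 3170, 7981 and 4476 in their nonmutated counterparts. Prlr set A read 4457 in the PhIP mutated cancer, 4456, 7632 and 5499 in the PhIP nonmutated cancers, 1370, 4133, 3090, 8322 and 7234 in the MNU mutated cancers and 7843, 3403, 5148 and 1072 in the MNU nonmutated cancers. Prlr set A read 4046, 2479, 6099 and 5233 in the radiation cancers and 7219, 4526 and 5709 in the spontaneous cancers, against 130.4, 478.9 and 761.7 in normal tissue. Every cancer lay above every normal tissue. The lowest normal tissue, normal tissue 1 at 130.4, had the highest hexokinase ratio of the normal tissues (3.413). The lowest cancers, at 1072 and 1370, were the 2 arrays of high hexokinase ratio. The fold change was 3.46 ± 0.44 (adjusted p = 9.54e-07), or 11-fold on the offset scale, and it was 3.58 ± 0.35 without those arrays.

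The other Prlr sets rose less. Prlr set B ran from 566.4 to 3416 in the cancers (median 1285), against 124.6, 326.8 and 351.4 in normal tissue, without overlap. Its fold change was 2.31 ± 0.39 (adjusted p = 5.57e-05). Prlr set C ran from 155.0 to 738.7 (median 374.4) in the cancers, against 160.7, 273.6 and 180.1 in normal tissue. Here 24 of 33 cancers lay above every normal tissue and 1 lay below. Set C rose by 0.76 ± 0.29 (adjusted p = 0.0425), a call that was lost without normal tissue 1 (0.64, adjusted p = 0.192), without normal tissue 3 (0.70, adjusted p = 0.161) and without any of 4 single cancers (adjusted p 0.0513 to 0.0522). Quantile normalization, array weights and leaving out the filter each lost it too.

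The Prlr sets therefore did not report the same size of change, and the difference was tested within arrays. Set A minus set B was 1.67 ± 0.44 log2 in the cancers and 0.53 ± 0.49 in normal tissue (SD, n = 33 and 3; difference 1.15, adjusted p = 0.0028 in a two-sided permutation test, exact over all arrangements of arrays, 5 pairs tested). Set A minus set C differed by 2.69 between cancers and normal tissue (exact permutation, adjusted p = 0.0028) and set B minus set C by 1.54 (exact permutation, adjusted p = 0.00374). In each pair 31 of 33 cancers lay above every normal tissue. For set A minus B and set A minus C the 2 exceptions were the arrays of high hexokinase ratio. Sets A, B and C read 1370, 726.0 and 738.7 in MNU mutated 1 and 1072, 713.7 and 359.5 in MNU nonmutated 4. Normal tissue 1, of the next highest ratio (3.413), read 130.4, 124.6 and 160.7, the smallest of both differences on any array. The part of RNA quality in these differences was not tested. The rat receptor is known to exist in long and short forms, and the sources used here do not say which form each probe set reads.

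Ghr, the growth hormone receptor (chromosome 2, 54269066 to 54532595), moved the other way. Ghr set A read 246.8, 321.8, 294.0 and 311.7 in the radiation plus PhIP cancers, 169.2, 210.2, 295.7, 228.7 and 65.87 in the radiation plus MNU mutated cancers and 192.0, 232.4, 221.9 and 157.0 in the radiation plus MNU nonmutated cancers. Ghr set A read 250.0 in the PhIP mutated cancer, 86.63, 123.7 and 169.8 in the PhIP nonmutated cancers, 159.5, 98.03, 445.3, 184.0 and 229.4 in the MNU mutated cancers and 188.1, 92.29, 300.1 and 169.1 in the MNU nonmutated cancers. Ghr set A read 221.0, 141.2, 164.9 and 142.8 in the radiation cancers and 172.8, 147.5 and 172.2 in the spontaneous cancers, against 1666, 953.4 and 878.6 in normal tissue. The highest cancer, at 445.3, was still below the lowest normal tissue. The fold change was -2.33 ± 0.26 (adjusted p = 1.13e-07), 5.03-fold lower on the offset scale.

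Ghr set B read 39.73 to 264.9 (median 101.0) in the cancers, against 1095, 389.1 and 737.8 in normal tissue, again without overlap. It fell by 2.30 on the log2 scale (SE 0.24, adjusted p = 2.71e-08). Both Ghr sets gave nearly the same change, their within-array difference being -0.03 between cancers and normal tissue (exact permutation, adjusted p = 0.914). Only 14 arrays exceeded the filter value in set B, so its fold change is the more compressed by the added constant.

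**Figure D2:**
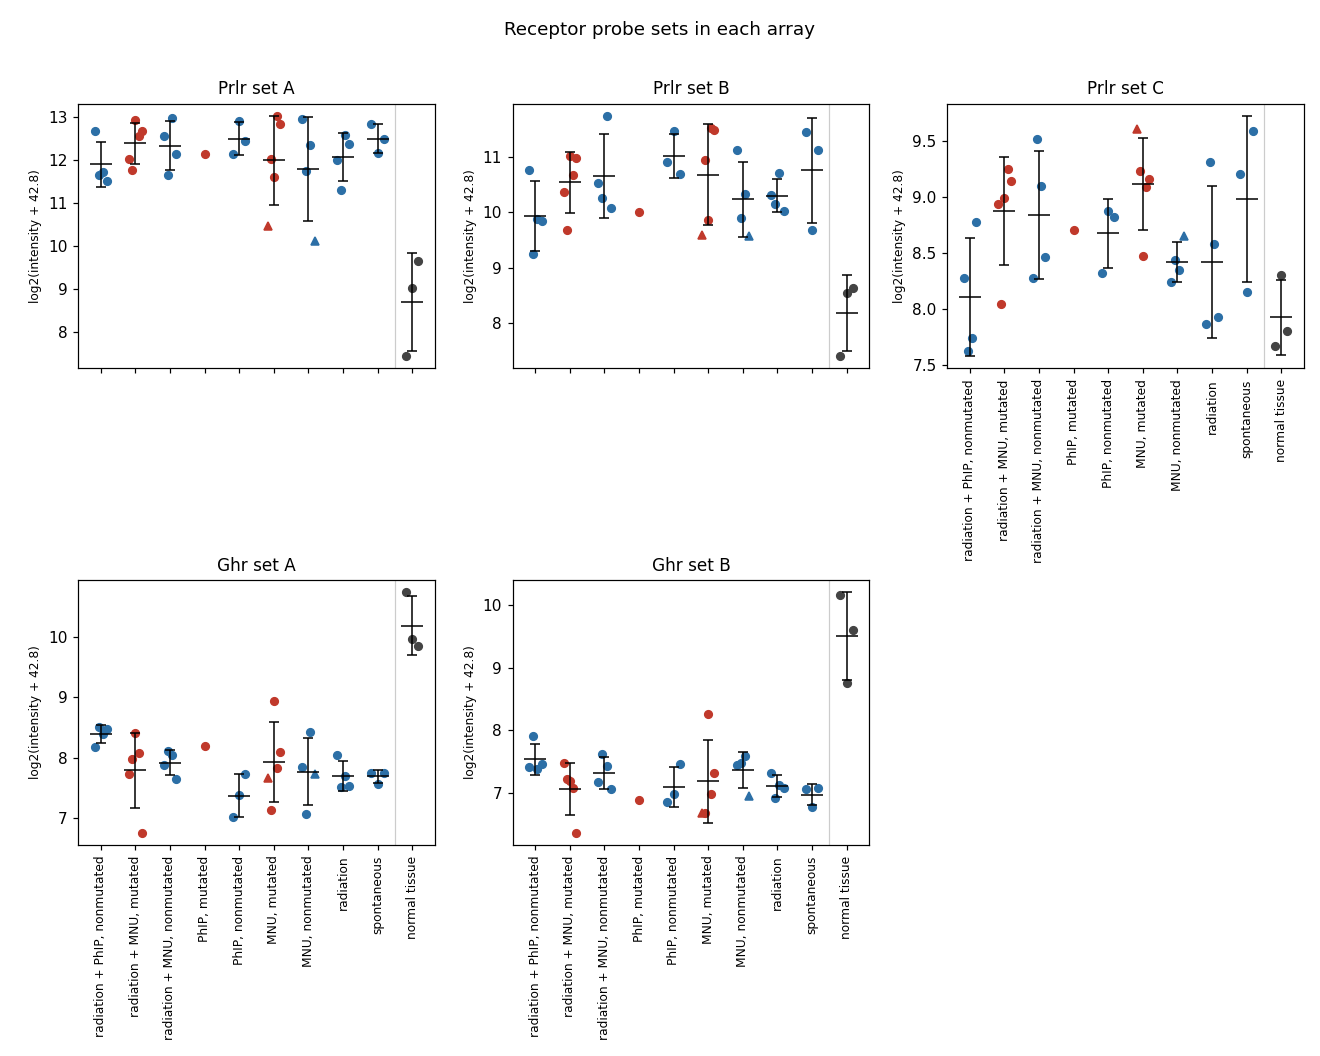
Log2 level of the Prlr and Ghr probe sets on every array by group, with the mean and SD as bars. Red points are H-ras mutated cancers, blue points nonmutated cancers, dark points normal tissue, and triangles the 2 arrays of high hexokinase ratio. Prlr sets A and B lie higher, and both Ghr sets lower, in all 33 cancers than in the 3 normal tissues.

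Marker RNA of several cell types moved with these changes. All 9 adipocyte markers fell, and their mean log2 level was 7.49 ± 0.25 in the cancers (range 7.03 to 8.18) and 11.78 ± 0.37 in normal tissue (11.39 to 12.11). Of 8 epithelial markers 6 rose and none fell, with mean levels of 12.37 ± 0.19 in the cancers (11.99 to 12.79) and 11.80 ± 0.31 in normal tissue (11.58 to 12.15). Of the basal markers 3 rose and 1 fell among 7. Among other cell types, all 5 endothelial markers tested fell, as did 4 of 6 macrophage, 2 of 7 fibroblast and 1 of 5 lymphoid markers, none of these rose, and none of 5 skeletal muscle markers moved past the threshold. Of all 11773 genes, with 1 probe set each, 17.2% rose and 15.7% fell. The fibroblast and lymphoid counts were not shown to exceed that share. In bulk tissue fewer cells of a type and less RNA per cell cannot be told apart.

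Setting each member against these markers on the same array gave values that differ for the receptors. Relative to the mean of 5 epithelial markers, Prlr sets A and B were higher in the cancers than in normal tissue (3.16 and 2.01 log2) and Ghr sets A and B lower (-2.63 and -2.60 log2; each exact permutation p adjusted over 24 tests 0.000448). Prlr set C was not separated by this measure (0.46, exact permutation, adjusted p = 0.179). Stat5a (-0.95, exact permutation, adjusted p = 0.00486) and Elf5 (-2.04, exact permutation, adjusted p = 0.00084) were again lower. Relative to 5 adipocyte markers all 12 sets were higher in the cancers, Ghr set A by 2.41 and Ghr set B by 2.44 (exact permutation, adjusted p = 0.000448). These 5 adipocyte markers themselves changed by -3.20 (Lep) to -6.34 (Fabp4), more than any member fell, so every set came out higher relative to them. The part of the adipocyte signal in the Ghr result was not tested.

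Jak2 (chromosome 1, 236408905 to 236468769), the kinase that both receptors use, stayed close to normal tissue. Jak2 ran from 457.4 to 1110 in the cancers, against 789.4, 838.1 and 818.0 in normal tissue. The fold change was -0.07 ± 0.17 with a 95% interval of -0.43 to 0.28 (adjusted p = 0.774). The cancers spread on both sides of normal tissue, 13 above and 16 below all of it.

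Stat5a (chromosome 10, 86285859 to 86310187), the STAT5 that prolactin uses most in the mammary gland, was lower in the cancers. Stat5a read 2248, 2295, 2183 and 2579 in the radiation plus PhIP cancers, 1697, 2639, 2491, 2546 and 2323 in the radiation plus MNU mutated cancers and 2456, 1704, 2457 and 2374 in the radiation plus MNU nonmutated cancers. Stat5a read 2889 in the PhIP mutated cancer, 1846, 2140 and 2370 in the PhIP nonmutated cancers, 1809, 1672, 1875, 2658 and 1904 in the MNU mutated cancers and 2832, 4236, 3224 and 3621 in the MNU nonmutated cancers. Stat5a read 2342, 1574, 2760 and 2296 in the radiation cancers and 2593, 2112 and 2069 in the spontaneous cancers, against 3117, 4540 and 3516 in normal tissue. In all, 30 of 33 cancers lay below every normal tissue, and the 3 that did not were MNU nonmutated cancers. Stat5a fell by 0.65 on the log2 scale (SE 0.15, adjusted p = 0.00133). The call was lost with each array's highest intensity as a covariate (-0.46, adjusted p = 0.1005), the normal tissues having highest values of 18611, 18771 and 32544 and the cancers 12282 to 19229.

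Stat5b (chromosome 10, 86205148 to 86276178), its close relative beside it on the chromosome, did not follow. Stat5b ran from 219.4 to 827.1 in the cancers, against 350.7, 661.8 and 527.8 in normal tissue. The fold change was 0.07 ± 0.24, with a 95% interval of -0.42 to 0.56 (adjusted p = 0.843). The lowest cancers, at 219.4 and 254.3, were again the 2 arrays of high hexokinase ratio.

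Cish (chromosome 8, 116850969 to 116855917), a SOCS-family inhibitor whose window holds the 4 motifs shown above, did not pass the test. Cish set A ran from 313.1 to 1310 in the cancers, against 763.7, 843.8 and 933.6 in normal tissue. Its fold change was -0.35 ± 0.25, with a 95% interval of -0.86 to 0.16 (adjusted p = 0.297), and 23 cancers lay below and 3 above every normal tissue. Cish set B gave -0.33 ± 0.34 (adjusted p = 0.499), and the 2 sets did not differ in their change (difference -0.03, exact permutation, adjusted p = 0.866). The radiation plus MNU mutated cancers spread most in Cish set A, at 340.2, 926.7, 1310, 809.2 and 513.8.

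Socs2 (chromosome 7, 31890564 to 31932092), the inhibitor best known for restraining growth hormone action, was weak and variable. Socs2 read 13.37 to 592.7 in the cancers, against 56.58, 131.1 and 106.3 in normal tissue. The fold change was 0.07 ± 0.52, and its 95% interval of -0.996 to 1.13 does not bound the change closely (adjusted p = 0.935). The lowest group mean was that of the radiation plus PhIP cancers (13.37, 36.01, 53.5 and 19.6). Single high readings occurred in the MNU nonmutated (592.7) and the radiation plus MNU nonmutated cancers (517.1), whose other arrays reached down to 41.89 and 14.5.

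Elf5 (chromosome 3, 110264460 to 110291926), the transcription factor that specifies milk-secreting alveolar cells, was lower in most cancers and varied widely among them. Elf5 read 4725, 1788, 5580 and 2021 in the radiation plus PhIP cancers, 1118, 3671, 2685, 4728 and 1385 in the radiation plus MNU mutated cancers and 3122, 666.9, 4225 and 4356 in the radiation plus MNU nonmutated cancers. Elf5 read 5708 in the PhIP mutated cancer, 1032, 2667 and 3301 in the PhIP nonmutated cancers, 385.4, 718.9, 1738, 2761 and 2905 in the MNU mutated cancers and 3161, 1634, 4070 and 118.2 in the MNU nonmutated cancers. Elf5 read 3882, 1069, 3318 and 2071 in the radiation cancers and 2122, 2007 and 1125 in the spontaneous cancers, against 4787, 10440 and 6913 in normal tissue. Of the 33 cancers 31 lay below every normal tissue.

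Elf5 fell by 1.74 on the log2 scale (SE 0.65, adjusted p = 0.0425), and by 1.55 (SE 0.49, adjusted p = 0.0163) without the 2 arrays of high hexokinase ratio. The call was lost without normal tissue 1 (adjusted p = 0.0654), 2 (adjusted p = 0.197) or 3 (adjusted p = 0.124), without spontaneous cancer 3 (adjusted p = 0.0501) and without MNU mutated cancer 2 (adjusted p = 0.0504). The Elf5 call was also lost with quantile normalization, with array weights and without a filter. With each array's highest intensity as a covariate the fold change was 0.04 (adjusted p = 0.983).

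**Figure D3:**
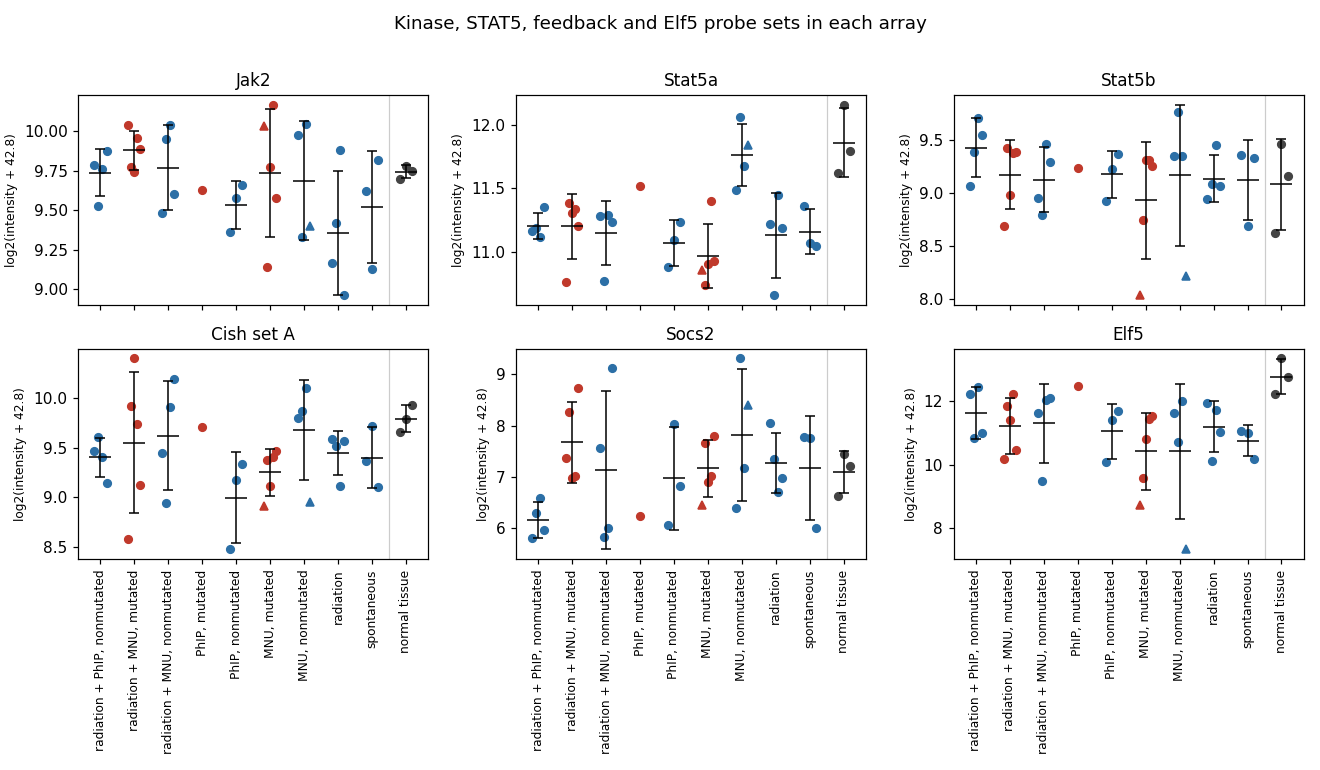
Log2 level of the Jak2, Stat5a, Stat5b, Cish set A, Socs2 and Elf5 probe sets on every array by group, with the mean and SD as bars and colours and triangles as in the plot of the receptors. Stat5a of 3 of the 4 MNU nonmutated cancers lies in the range of normal tissue, and Elf5 spreads widely within groups.

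The receptor changes were present in each cancer group. Against normal tissue 7 of 12 member sets passed in the MNU mutated cancers (25.2% of all probe sets), 6 in the radiation plus MNU mutated cancers (22.2%) and 5 in each of the other 6 groups: radiation plus PhIP (19.4%), radiation plus MNU nonmutated (13.5%), PhIP nonmutated (19.8%), MNU nonmutated (18.6%), radiation (18.8%) and spontaneous (19.6%). These 8 comparisons share the 3 normal tissues. Prlr set A passed in all 8 groups with 3.09 to 3.79, Prlr set B with 1.76 to 2.85, Ghr set A with -2.81 to -1.79 and Ghr set B with -2.53 to -1.97. Stat5a passed in 7 of 8, the exception being the MNU nonmutated cancers (-0.10 ± 0.19, adjusted p = 0.763). Prlr set C passed in 2 groups, the MNU mutated (1.19) and the radiation plus MNU mutated cancers (0.95). Elf5 passed in 2, the MNU mutated and the MNU nonmutated cancers (-2.37 and -2.36), the groups that hold the 2 arrays of high hexokinase ratio. Without those arrays Elf5 passed in the MNU mutated cancers (-1.95 ± 0.62, adjusted p = 0.0206) and the spontaneous cancers (-2.03 ± 0.66, adjusted p = 0.0271) but not in the MNU nonmutated cancers (-1.33 ± 0.66, adjusted p = 0.168), and Prlr set C also passed in the spontaneous cancers (1.06 ± 0.39, adjusted p = 0.0487). Jak2, Stat5b, Cish and Socs2 passed in none of the 8 groups.

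Ordered by mean log2 level, Prlr set A ran from 11.79 ± 1.21 in the MNU nonmutated cancers to 12.49 ± 0.39 in the PhIP nonmutated and 12.49 ± 0.33 in the spontaneous cancers (SD, n = 4, 3 and 3). The MNU nonmutated cancers came lowest through array 4, one of the 2 of high hexokinase ratio. Without these arrays their mean was 12.35 ± 0.60 (SD, n = 3), and the lowest was that of the radiation plus PhIP cancers at 11.90 ± 0.53 (SD, n = 4). Ghr set A ran from 7.38 ± 0.36 in the PhIP nonmutated cancers to 8.39 ± 0.15 in the radiation plus PhIP cancers (SD, n = 3 and 4). Cancer groups with over 1 array that are neighbours in these orders lay closer to each other than the larger of their SDs, with or without the 2 arrays. Sorting by mean favours such closeness, so it does not show whether groups differ. The ends of the Ghr set A order did not overlap (86.63 to 169.8 against 246.8 to 321.8), a difference tested below. An F test over the 6 nonmutated cancer groups called no member, beside 0.041% of all probe sets, the smallest member value being that of Stat5a (adjusted p = 0.392, unadjusted p = 0.00426 in limma).

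H-ras mutation status was compared within the 2 treatments that had both classes. As the mean of both, mutated against nonmutated, limma called 0 of the 12 member sets, beside 0.0% of all probe sets (1580 at an unadjusted p under 0.05). Nothing was called within MNU (0.0%, 1652 unadjusted), within radiation plus MNU (0.0%, 711 unadjusted) or in the interaction of the 2 (0.0%, 652 unadjusted). Prlr set A differed by 0.13 ± 0.35 (95% interval -0.58 to 0.84) between mutated and nonmutated cancers. Elf5 differed by -0.04 ± 0.51 (-1.09 to 1.00), or -0.35 ± 0.41 without the 2 arrays of high hexokinase ratio, and Socs2 by -0.06 ± 0.41 (-0.89 to 0.78), so none of these intervals bounds the change closely.

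Stat5a was the member with the smallest p for H-ras. In MNU cancers the 5 mutated arrays lay below the 4 nonmutated ones without overlap (1672 to 2658 against 2832 to 4236), a difference of -0.80 ± 0.16 (adjusted p = 0.0838). In radiation plus MNU cancers the difference was 0.06 ± 0.16 (adjusted p = 1.00), with 1697 to 2639 in mutated and 1704 to 2457 in nonmutated cancers. The interaction was 0.86 ± 0.23 (unadjusted p = 0.000859, adjusted p = 1.00), so the 2 treatments were not shown to differ. The MNU difference passed the threshold without MNU mutated 4 (-0.91, adjusted p = 0.0301) or without MNU nonmutated 1 (-0.89, adjusted p = 0.0414), and did not without MNU nonmutated 2 (-0.70, adjusted p = 0.338) or without the 2 arrays of high hexokinase ratio (-0.75, adjusted p = 0.326).

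Radiation was compared with no radiation in 4 backgrounds of equal weight. No member was called, beside 0.0% of all probe sets (1986 at an unadjusted p under 0.05 in limma). The member estimates farthest from 0 were those of Elf5 (0.68 ± 0.39, 95% interval -0.11 to 1.48) and Cish set B (0.33 ± 0.20, -0.08 to 0.75), and both intervals include 0. Without the 2 arrays of high hexokinase ratio, both from unirradiated rats, these were 0.32 ± 0.30 and 0.16 ± 0.17. Prlr set A gave -0.02 ± 0.26 (-0.56 to 0.52), and -0.26 ± 0.21 without them. Within single backgrounds no member passed either, beside 0.041% of all probe sets without a chemical and 0.0% in the MNU mutated, MNU nonmutated and PhIP nonmutated backgrounds (1243, 1625 and 1933 probe sets at an unadjusted p under 0.05). Ghr set A gave 1.01 ± 0.33 for radiation plus PhIP over PhIP cancers (246.8 to 321.8 against 86.63 to 169.8, without overlap), with an adjusted p of 0.460.

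Comparisons by cause gave no member call either. The 19 induced nonmutated cancers against the 3 spontaneous ones called none of the 12 sets, beside 0.0592% of all probe sets. Each induced group against the same 3 spontaneous cancers called none as well, beside 0.0364% for MNU, 0.00455% for PhIP, 0.0% for radiation plus MNU (1781 at an unadjusted p under 0.05), 0.0228% for radiation plus PhIP and 0.041% for radiation. MNU against PhIP, nonmutated and averaged over radiation, called none, beside 0.00455%. There the members with the smallest p were Stat5a (0.32 ± 0.13, adjusted p = 0.595), Cish set A (0.45 ± 0.22, adjusted p = 0.655) and Socs2 (0.91 ± 0.45, adjusted p = 0.672).

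Among the 33 cancers the members differed in how much they varied. Elf5 had an SD of 1.14 log2, above 99.3% of all probe sets tested, and its highest cancer stood 35.7-fold over its lowest on the offset scale. Without the 2 arrays of high hexokinase ratio its SD was 0.84, above 98.0% of probe sets, and its range 8.10-fold. Socs2 had an SD of 0.96, above 98.6% of probe sets, and an 11.3-fold range, much of it near the filter value, and its SD without the same arrays, at 0.95, was above that of Elf5. Prlr sets A and B had SDs of 0.68 and 0.67 (0.50 and 0.65 without those arrays), while Jak2 and Stat5a, at 0.31 each, lay near the middle of all probe sets (above 58.6% and 59.8%).

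Correlations over the 33 cancers were computed for the 28 pairs of members and for each member with the mean of the epithelial, adipocyte and milk lists, 52 relations in all, with 1 probe set per gene. By permutation of Pearson's r, 11 of 52 passed an adjusted p of 0.05, and 8 without the 2 arrays of high hexokinase ratio, 6 of them shared. Elf5 followed the mean of 13 milk genes (r = 0.72, rho = 0.75, permutation adjusted p = 0.00052 for each), and r was 0.64 without the 2 arrays of lowest Elf5. Cish followed Elf5 (r = 0.58, rho = 0.61, permutation adjusted p = 0.0039 and 0.00503), with r = 0.61 without the 2 cancers farthest from the median of Cish. Cish also followed the milk genes (r = 0.59, rho = 0.59, permutation adjusted p = 0.00468 and 0.00503; 0.66 without the 2 farthest). The feedback gene, the alveolar factor and the milk genes thus varied together across cancers, and each of these 3 relations also passed after group means were subtracted (r of 0.68 to 0.74). That within-group test permuted the residuals without allowing for the group means taken out, so its p-values tend to be too small.

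Other relations were weaker or depended on a few arrays. Stat5a followed Cish (r = 0.44, rho = 0.46, permutation adjusted p = 0.0483 and 0.0454; 0.56 without the 2 farthest), but not past the threshold after group means were subtracted (adjusted p = 0.1015). Ghr and Socs2 ran in opposite directions (r = -0.45, rho = -0.46, permutation adjusted p = 0.0417 and 0.0454; -0.41 without the 2 farthest), and the adjusted p within groups was 0.0769. Stat5a and Cish ran against the mean of the epithelial markers (r = -0.46 and -0.45, permutation adjusted p = 0.0417 each, rho = -0.39 and -0.43, -0.41 and -0.37 without the 2 farthest). Neither passed by rho (permutation adjusted p = 0.0775 and 0.0543) or within groups (0.0712 and 0.0528), and Cish did not pass without the 2 arrays of high hexokinase ratio (r = -0.42, permutation adjusted p = 0.0944). Prlr followed Elf5 (r = 0.67, rho = 0.45, adjusted p = 0.00173 and 0.0454), Stat5b (r = 0.50, rho = 0.17, adjusted p = 0.0273 and 0.509) and the milk genes (r = 0.49, rho = 0.45, adjusted p = 0.0273 and 0.0454). Without the 2 arrays of high hexokinase ratio these were 0.35, 0.02 and 0.30 by permutation of Pearson's r (adjusted p = 0.165, 0.938 and 0.237), so they rest on those arrays. Stat5b with Elf5 (r = 0.69, rho = 0.46, adjusted p = 0.00078 and 0.0454) was 0.44 without them (permutation, adjusted p = 0.0770). The 2 relations that passed by r only without these arrays were Stat5a with Stat5b (r = 0.63, permutation adjusted p = 0.00598, against 0.35 and 0.119 over all 33) and Stat5a with Elf5 (r = 0.55, permutation adjusted p = 0.0166, against 0.22 and 0.389). Over all 33 these 2 had rho of 0.48 and 0.47 (permutation adjusted p = 0.0454 each). Jak2 and Socs2 ran in opposite directions within groups (r = -0.56, permutation adjusted p = 0.00773), though not past the threshold over the 33 as they stood (r = -0.38, permutation adjusted p = 0.109). The same held for Cish with the adipocyte markers (0.49, permutation adjusted p = 0.0248, against 0.41 and 0.0771). It also held for Elf5 with the epithelial markers (-0.46 and 0.0371, against -0.38 and 0.1015) and Prlr with Cish (0.45 and 0.04945, against 0.33 and 0.1566). As said above, within-group p-values tend to be too small, so calls near the threshold are uncertain. Without the 2 arrays of high hexokinase ratio, and with group means kept, none of these relations passed. Jak2 with Socs2 gave r = -0.34, Cish with the adipocyte markers 0.34 and Elf5 with the epithelial markers -0.36. Prlr with Cish gave 0.17 (permutation adjusted p = 0.561).

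**Figure D4:**
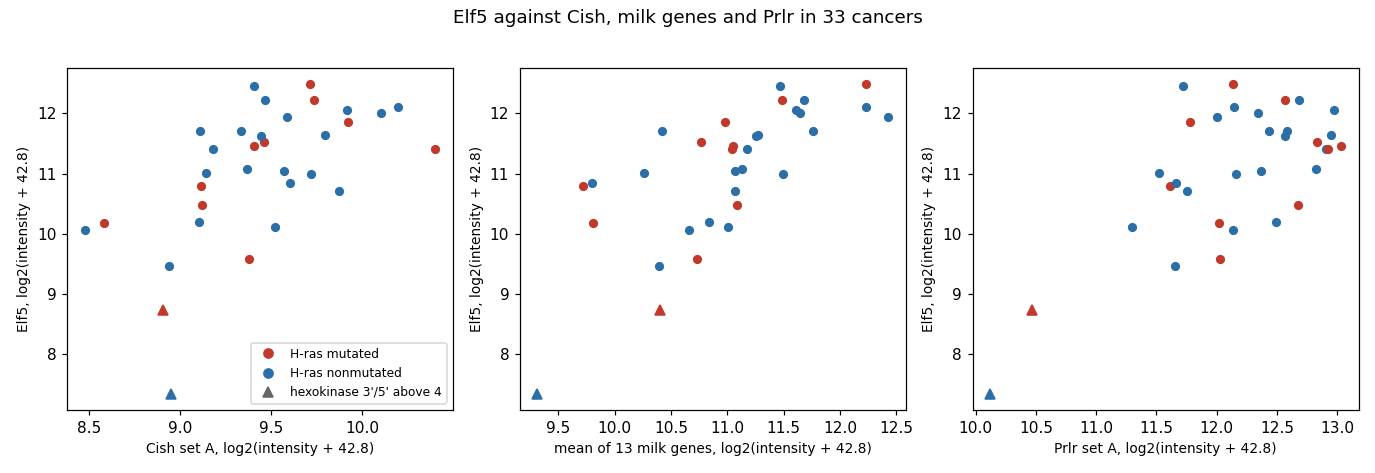
Log2 level of Elf5 in each of the 33 cancers (vertical axes) against Cish set A, the mean of 13 milk genes and Prlr set A (horizontal axes). The 2 triangles, the arrays of high hexokinase ratio, have the lowest Elf5 and the lowest Prlr, and the relation of Elf5 with Prlr falls to r = 0.35 without them, while that with milk genes stays at 0.64.

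The wider route was described with gene lists, 1 probe set per symbol, for which 32.9% of 11773 genes passed in cancers against normal tissue (17.2% higher, 15.7% lower, median 0.02). Of 12 ligands listed 9 had a probe set and 3 passed the filter that removes low values. Lep (leptin, made by adipocytes) gave -3.197, with a mean log2 level of 5.777 in the cancers and 8.974 in normal tissue. Lep passed the filter only through the normal tissues, so a fall was the only direction open and its test is no evidence. The same holds for Lep among the adipocyte markers above. Of 10 other class I cytokine receptors tested none rose and 4 fell, Il6r (-1.44), Il4r (-0.83), Il2rg (-0.80) and Lepr (-0.45), with adjusted p of 0.000386 to 0.0436. The median of these 10 was -0.48. The list as drawn up also held Ghrhr and Ghsr, which are G protein-coupled receptors and are left out of these counts. Of 12 kinases and STATs 2 rose, Src by 1.27 and Vav2 by 0.44, and 3 fell, Jak1 (-0.59), Fyn (-0.53) and Stat3 (-0.43), with a list median of -0.19.

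Of 23 feedback genes and adaptors 4 rose and 5 fell (median 0.06). Ptpn2, a phosphatase that acts on JAK and STAT proteins, fell by 0.75 (SE 0.11, adjusted p = 4.51e-06), and Sirpa (-0.61) and Socs6 (-0.31) fell too. Socs5, Btrc, part of the ubiquitin ligase that turns over the prolactin and growth hormone receptors, and Pias3 rose by 0.57, 0.50 and 0.37. Of 13 genes of the growth hormone and IGF axis 3 rose and 3 fell (median 0.02). Igf1, a growth hormone target, fell by 1.96 (SE 0.34, adjusted p = 6.60e-05). Igfbp3 and Igfals, which carry IGF in blood, rose by 2.25 (SE 0.35) and 2.26 (SE 0.80), with adjusted p of 1.48e-05 and 0.0315 in limma. Igfals varied widely among the cancers (SD 1.86 log2) and lay near the bottom of the scale in normal tissue (mean log2 5.705). Igfbp2 rose by 0.54, and Igfbp6 (-1.22) and Pik3r1 (-2.52) fell.

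Of 19 mammary genes known to depend on prolactin, its receptor or STAT5, or to act beside them, 7 rose and 3 fell (median 0.34). Areg, an EGF receptor ligand of ductal growth, rose by 4.39 (SE 0.30, adjusted p = 3.07e-12) and Wnt4 by 2.93 (SE 0.37). Cldn7, Ccnd1 (cyclin D1) and Pim2 rose by 1.35, 1.19 and 0.95, and Nr3c1, the glucocorticoid receptor, fell by 0.52. Areg is also known as an estrogen target and Wnt4 as a progesterone target. Of 13 milk genes none rose and 8 fell (median -1.28), led by Lao1 (-2.52), Slc34a2 (-3.65), Muc1 (-1.23), Lpo (-2.65), Xdh (-1.53) and Glycam1 (-3.55), with adjusted p of 0.000121 to 0.0350. The mammary list thus held rises and falls together, and the milk list falls alone. No gene of these 7 lists passed in the comparisons by H-ras, radiation or cause.

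The genes whose level over the 33 cancers was most like that of each member, among 1-symbol probe sets, are given by Pearson's r as a description. Elf5 was followed most closely, by Ngef (0.95), Fam20c (0.94) and Kcnn4 (0.94). Prlr was nearest to Sltm (0.91), Matr3 (0.88) and Lysmd3 (0.87), and Stat5a to Ano1 (0.81), Prom2 (0.80) and Klhl25 (0.74). For Stat5b the nearest were Vgll4 (0.81), Ldlrad3 (0.80) and LOC102547955 (0.79), and for Cish they were Hip1 (0.80), Cx3cl1 (0.76) and Arid5a (0.75). Ghr was nearest to Prelp (0.77), Fam151b (0.76) and Rapsn (0.74), Socs2 to Cdc34 (0.71), Scd (0.66) and Abhd2 (0.65), and Jak2 to Cxcl12 (0.68), Ak3 (0.68) and Slc2a8 (0.66). Without the 2 arrays of high hexokinase ratio the values of Sltm, Matr3 and Lysmd3 with Prlr were 0.80, 0.74 and 0.74, and those of Vgll4, Ldlrad3 and LOC102547955 with Stat5b were 0.64, 0.67 and 0.63. Probe sets of one gene could disagree, the brightest sets of Sltm and Matr3 giving 0.13 and -0.35 with Prlr over the 33. These arrays share cell mixture and RNA quality, so a high r here says only that 2 levels moved together.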

How the data were processed

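Total RNA was labelled with biotin and hybridised to one-colour oligonucleotide arrays, per the labels. The authors deposited linear intensities, 1 for each probe set on each array. How these were summarised and scaled was not given in the sources used here, but the mean after leaving out 2% at each end was 500.1 on each array, so no further normalization was added. Of 31099 probe sets 20832 carried 1 symbol, 436 several and 9831 none in the platform annotation, whose names can be old.

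Values were transformed as log2(intensity + 42.8), the 20th percentile of all values, and probe sets above 125.8, the 40th percentile, on at least 3 arrays were kept. limma 3.58.1 in R 4.3.3 was fitted with 1 mean for each of the 10 groups. Permutation tests used scipy 1.17.1 (100000 resamples for correlations). The limma fit was tested on simulated data. The PhIP mutated group, with 1 array, entered only the mean of all cancers.

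All 12 member sets are named. Up to 6 genes a list with the smallest adjusted p past the threshold, and the 3 genes most like each member, are named too. Members and lists were chosen with earlier results of these data known. Positions and promoter windows are RefSeq GRCr8. Alternatives covered normalization, added constant, filter, gene level, array weights, variance prior, replicate numbers as a block, quality covariates and leaving out each array. The alternative without the 2 arrays of high hexokinase ratio was chosen after seeing the data. Same-numbered arrays of different groups did not deviate together (median r 0.00926 over 122 pairs, from -0.537 to 0.413; 0.00244 for other pairs), so numbers were not taken as pairs.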

Additional observations from a re-analysis of the deposited data

Results flagged for a closer look

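Within a group, 1 array stood far from the rest in 6 of 72 member-by-group checks. Chance gives about 1 in 20, and the count was not shown to exceed this. The checks share arrays, no share over all probe sets is given, and the cases are listed as a description. The value given is the gap to the nearest array as a share of the group's range, both on the log2 scale, while the readings are intensities. Prlr set C read 221.4 in radiation plus MNU mutated 2, against 447.9 to 565.7 in the other 4 (0.742). Ghr set B read 197.5 in radiation plus PhIP 2, against 123.9 to 132.8 (0.858). Stat5a supplied 3 cases. It read 2658 in MNU mutated 4, against 1672 to 1904 (0.72). It read 1697 in radiation plus MNU mutated 1, against 2323 to 2639 (0.711), and 1704 in radiation plus MNU nonmutated 2, against 2374 to 2457 (0.905). Cish set A read 509.2 in radiation 3, against 691.1 to 724.8 (0.863).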

How the results depend on the processing

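In cancers against normal tissue, Prlr sets A and B and both Ghr sets kept direction and call under every alternative that tested them (Prlr set A 2.82 to 4.67, Ghr set A -2.50 to -1.75 over 49 alternatives). Stat5a passed in 48 of 49, Elf5 in 38 of 49 and Prlr set C in 34 of 48. The member count of 7 of 12 stood beside 30.5% of all probe sets. It was 4 of 8 at gene level, where fewer sets are tested, beside 34.4%. With the highest intensity of each array as covariate it was 4 of 12, beside 19.3%, and Elf5 turned to 0.0351 (adjusted p = 0.983). Leaving out 1 array gave 5 to 7. Over the 8 groups against normal tissue, 43 of 96 member tests passed, beside 13.5% to 25.2% of all probe sets by group. The count was 25 of 64 at gene level and 36 to 44 leaving out 1 array, for which no share over all probe sets is given. With a replicate block, whose numbers do not pair the samples, the member count was 5 of 12, beside 30.1% (Prlr set C adjusted p = 0.0774, Elf5 adjusted p = 0.0533). It was 41 of 96 over the 8 groups, again without a share, and 0 in each comparison among cancers.

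H-ras tests gave 0 to 1 member call leaving out 1 array. The other comparisons among cancers gave 0 to 0, markers 17 to 19 of 24 (18 as reported) and probe set pairs 3 to 3. The marker count includes the tests against adipocyte markers, which fell more than any member, so every set came out higher there. Only the tests against epithelial markers were open in direction, so the total is not a measure of stability. Array weights, whose fit stopped before convergence, gave 6 member calls for radiation (all in PhIP cancers), 4 in the F test and 1 against spontaneous cancers, where they called 19.7%, 22.6% and 4.45% of all probe sets. The cause of these shifts was not tested.

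The count of 3 normal tissues limits every comparison with them. Socs2 and Ghr set B lay near background on most cancers, so their folds are compressed, and arrays of unequal highest intensity limit the brightest sets. The summarisation method is not known.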
